A study of Mus musculus with 24 samples.

Results

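A set of 10 genes of the extracellular matrix was followed in the mouse distal small intestine: 3 chains of the fibril-forming collagens (Col1a1, Col1a2 and Col3a1), 2 chains of basement membrane collagen IV (Col4a1 and Col4a2), 3 chains of the beaded-filament collagen VI (Col6a1, Col6a2 and Col6a3), fibronectin (Fn1) and Sparc. They were taken by name, through the gene identifiers of the deposited count table, and make up 10 of the 55536 genes listed there. All 10 were among the 14076 genes that passed the filter on low counts and were tested. RNA-Seq libraries were made from 24 C57BL/6N mice of both sexes, which entered the experiment at 4 to 5 weeks of age. CD mice received a control diet with 10% of its energy as fat, and HFD mice a high-fat diet with 60%. After 20 weeks on either diet, the CDmetf and HFDmetf mice were given metformin, a glucose-lowering drug, in their drinking water at 50 mg per kg of body mass per day for another 10 weeks, while the CD and HFD mice were not. Each of the 4 groups held 6 animals, 3 male (M1 to M3) and 3 female (F1 to F3), each from a cage of its own. The study describes the HFD-fed animals as obese, and the labels name no genetic change, so that the model rests on diet alone. Whole intestinal tissue was used, so that fewer cells of a type and less RNA per cell cannot be told apart in any value given here.

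Collagens are made as chains that wind around each other into a rope-like helix. Glycine, the smallest amino acid, has to recur at regular steps along each chain because it alone fits into the centre of the helix. Chains of collagen I (Col1a1 and Col1a2) and collagen III (Col3a1) build the fibres that give the gut wall its tensile strength, and come mainly from fibroblasts and smooth muscle. Col4a1 and Col4a2 combine into the network of the basement membrane, the sheet on which epithelium, endothelium, muscle and fat cells rest. Col6a1, Col6a2 and Col6a3 form microfibrils that connect cells to the surrounding matrix and are abundant in connective and adipose tissue. Fn1 encodes fibronectin, a glycoprotein through which cells bind the matrix by integrins, and Sparc encodes a secreted protein that binds collagen and assists its assembly.

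The periodic glycine of the helix is visible in the coding sequences of the chains, which are shown to let the fibril-forming and basement membrane collagens be compared. Each line runs 5′ to 3′ and comes from the GENCODE M21 transcript models of GRCm38. Capitals mark the first bases, GG, of every glycine codon, and the first 3 lines give the start of the longest stretch in which each 3rd codon encodes glycine.
Col1a1: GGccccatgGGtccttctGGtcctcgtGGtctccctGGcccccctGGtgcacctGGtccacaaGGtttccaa
Col1a2: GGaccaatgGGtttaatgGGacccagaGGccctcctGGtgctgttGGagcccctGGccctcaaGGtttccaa
Col3a1: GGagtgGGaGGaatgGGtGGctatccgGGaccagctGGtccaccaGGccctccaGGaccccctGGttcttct
Col4a1: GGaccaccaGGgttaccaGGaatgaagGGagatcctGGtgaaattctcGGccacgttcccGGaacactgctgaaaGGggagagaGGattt
Col4a2: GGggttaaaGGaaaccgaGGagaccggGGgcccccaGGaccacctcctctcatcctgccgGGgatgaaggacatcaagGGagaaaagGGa

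Those stretches began at codon 168 of Col1a1, codon 97 of Col1a2 and codon 164 of Col3a1, and ran without a break for 338, 339 and 344 repeats. In the basement membrane chains the longest unbroken stretch was 40 repeats for Col4a1 and 66 for Col4a2, and the lines shown for these genes cover the end of it, where the spacing of the capitals becomes irregular. Col6a1 and Col6a2 each had 87 repeats and Col6a3 had 45. Fn1 and Sparc, which are no collagens, had at most 2 in a row. On GRCm38, Col1a1 lies on chromosome 11 (94936224 to 94953042, plus strand), Col1a2 on chromosome 6 (4504814 to 4541544, plus strand) and Col3a1 on chromosome 1 (45311538 to 45349706, plus strand). Col4a1 (11198423 to 11312826, minus strand) and Col4a2 (11312805 to 11449287, plus strand) stand head to head on chromosome 8, and their gene models overlap by 22 bases. Col6a1 (76708792 to 76726168) and Col6a2 (76595762 to 76623630) are neighbours on the minus strand of chromosome 10. Col6a3 (90765923 to 90843971) and Fn1 (71585520 to 71653200) lie on the minus strand of chromosome 1, and Sparc (55394500 to 55423183) on the minus strand of chromosome 11. Which strand the counts were taken from was not stated. Ambiguous reads are listed apart from the genes in the deposited counts (1.86 to 12.6% of the reads per library). Depending on the strand, reads from the 22 shared bases may therefore be missing from the gene counts. The same holds for the opposite-strand overlaps of Col4a2 with Gm15419 and of Fn1 with Apol7d. Col3a1 overlaps Gm47302 on the same strand, so reads from that stretch may be missing whichever strand was counted.

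Reads on genes ranged from 1.83 to 40.6 M per library with a median of 3.47 M, and the libraries fell into 10 with 9.26 to 40.6 M and 14 with 1.83 to 5.19 M. The deep libraries were 4 of CD and 2 of each other group, 3 male and 7 female, and 4, 0 and 6 of those with replicate number 1, 2 and 3. In CD M3 the 10 most abundant genes took 85.4% of the reads, against 9.22 to 36.6% elsewhere, so its levels rest on a TMM scaling factor of 0.189. The library labelled HFD M2 held 3355 Xist reads and no read of the Y-linked genes, and the library labelled HFD F2 held 1 and 423, both against their labelled sex. Most results are therefore also given without HFD M2 and HFD F2, and without CD M3 where that changed them. Depth did not limit detection: the lowest count of any of the 10 genes in any library was 80 reads, well above 3 reads, which corresponded to 0.0705 to 1.71 CPM (read counts scaled to a common library size by TMM).

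All 10 genes had their highest mean and their highest median level in HFDmetf, but no gene had a group that stood clear of any other. The 10 varied together over the libraries, so these are not 10 separate results. How many of all genes tested had the same order or overlap was not computed. Some medians were close, such as 105 CPM in HFDmetf and 102 in CDmetf for Col1a1. Summed over the 10 genes, the level was 534 to 2084 CPM in CD (median 1006), 746 to 2121 in CDmetf (median 1175), 583 to 1460 in HFD (median 1266) and 826 to 2995 in HFDmetf (median 1406). The lowest mean was found in HFD for 9 genes and in CD for Col3a1, whereas the lowest median was found in CD for 9 genes and in HFD for Col6a1. The highest group mean exceeded the lowest by 1.47-fold (Col6a2) to 1.75-fold (Sparc), while single libraries differed by 3.92-fold (Col6a2) to 8.93-fold (Col1a1). Per kilobase of the principal transcript, the order was Sparc (53.2 ± 31.6 CPM per kb, SD, n = 24), Col3a1 (39.7 ± 19.5), Col6a1 (32.7 ± 11.4), Col6a2 (28.9 ± 11.4), Col1a2 (21.3 ± 10.6), Col4a1 (21.2 ± 10.6), Fn1 (19 ± 7.90), Col1a1 (19 ± 12.5), Col4a2 (14.6 ± 7.41) and Col6a3 (11.5 ± 5.72). Sparc was above Col3a1 in 20 of 24 libraries and Col6a2 above Col1a2 in 24 of 24, but Col1a2 was above Col4a1 in only 10 of 24, so that these neighbours were not separated beyond their spread. With length taken over all annotated exons, Sparc remained highest and Col6a3 lowest, and the order between them differed.

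**Figure D1:**
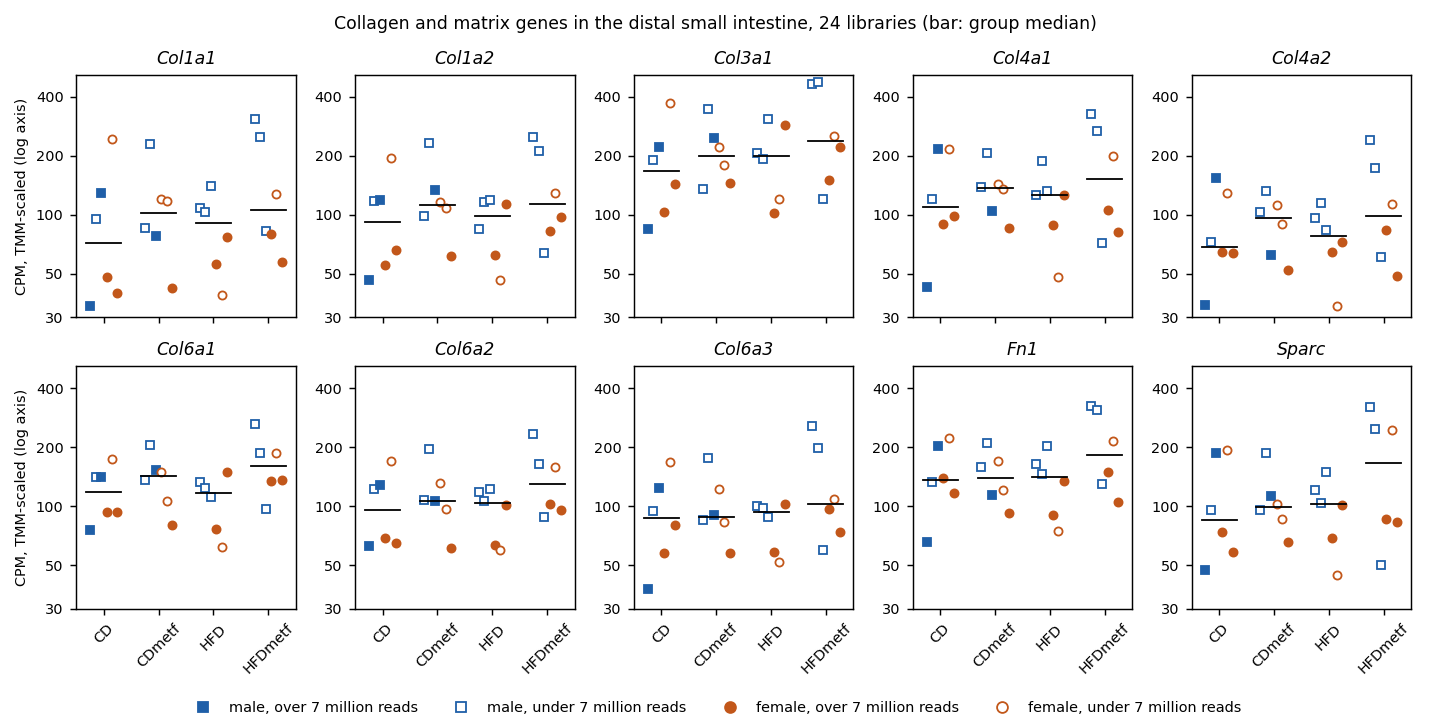
TMM-scaled CPM (log axis) of each of the 10 genes in the 24 libraries by group, with squares for males, circles for females, filled symbols for libraries over 7 M reads and a bar for the group median. The bar of HFDmetf is the highest in all 10 panels, and the points of the 4 groups overlap in each.

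Among the fibril-forming collagens, Col1a1 had the widest spread of all 10 genes. Col1a1, the chain present in most copies in collagen I, ran from 34.5 to 244 CPM in CD (median 71.5), from 42.6 to 229 in CDmetf (median 102), from 39 to 140 in HFD (median 90.9) and from 57.7 to 308 in HFDmetf (median 105). Its partner Col1a2 ran from 46.5 to 194 in CD (median 91.8), from 61.7 to 232 in CDmetf (median 112), from 46.7 to 119 in HFD (median 99.3) and from 64.2 to 251 in HFDmetf (median 113). For both chains CD M1 was the lowest library and HFDmetf M1 the highest, and every group held animals in the range of every other. Col3a1, which was the most abundant of the 10 in raw CPM, ran from 85.1 to 372 in CD (median 167), from 135 to 348 in CDmetf (median 200), from 102 to 310 in HFD (median 200) and from 120 to 478 in HFDmetf (median 237). Here HFDmetf M2 rather than HFDmetf M1 was highest. Mean levels were 98.6 ± 80.3, 112 ± 63.8, 87.7 ± 37.2 and 151 ± 104 CPM (SD, n = 6 each) for Col1a1 in CD, CDmetf, HFD and HFDmetf and the ranges of the 4 groups overlapped.

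For basement membrane collagen IV both chains were high and low in the same animals. Col4a1 ran from 43 to 217 CPM in CD (median 109), from 85.4 to 207 in CDmetf (median 138), from 48.4 to 189 in HFD (median 127) and from 72.2 to 329 in HFDmetf (median 153). Col4a2 ran from 34.9 to 155 in CD (median 68.8), from 52.6 to 132 in CDmetf (median 96.5), from 34.3 to 115 in HFD (median 78.4) and from 48.9 to 241 in HFDmetf (median 98.6). HFDmetf M1, HFDmetf M2 and CD M3 were the 3 highest libraries for both chains, and CD M1 and HFD F2 the 2 lowest.

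Within collagen VI, Col6a1 and Col6a2 varied less between libraries than the other 8 genes. Col6a1 ran from 75.7 to 175 CPM in CD (median 118), from 80.8 to 205 in CDmetf (median 143), from 61.7 to 150 in HFD (median 117) and from 97.0 to 262 in HFDmetf (median 161). Col6a2 ran from 62.5 to 170 in CD (median 95.3), from 61.2 to 196 in CDmetf (median 107), from 60.0 to 123 in HFD (median 104) and from 88.1 to 235 in HFDmetf (median 131). Their coefficients of variation over the 24 libraries were 35% and 39.6%, against 49.9% for Col6a3 and 66.1% for Col1a1. Col6a3, whose chain is the longest of the collagen VI chains, ran from 37.9 to 168 in CD (median 87.8), from 58.1 to 176 in CDmetf (median 87.9), from 51.8 to 103 in HFD (median 93.2) and from 59.8 to 258 in HFDmetf (median 103).

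Fn1 and Sparc, the non-collagen genes, were also lowest in CD M1 or HFD F2 and highest in HFDmetf M1. Fn1 ran from 66.1 to 222 CPM in CD (median 136), from 92.9 to 210 in CDmetf (median 140), from 75.0 to 203 in HFD (median 141) and from 105 to 324 in HFDmetf (median 183). Sparc ran from 47.5 to 193 in CD (median 85.3), from 66.1 to 187 in CDmetf (median 99.4), from 44.5 to 150 in HFD (median 103) and from 50.5 to 323 in HFDmetf (median 166). Sparc had the largest ratio between group means, 173 ± 113 CPM in HFDmetf against 98.6 ± 37.4 in HFD (SD, n = 6 each), and in HFDmetf its highest and lowest libraries differed by 6.40-fold.

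The HFD vs. CD comparison asks what the diet did without metformin, and none of the 10 genes passed the test. In the edgeR quasi-likelihood model, which also held sex and the replicate number, logFC (log2) was negative for 9 genes and 0.18 ± 0.357 (SE) for Col3a1. The most negative value was −0.21 ± 0.348 for Col4a2, with a 95% interval from −0.95 to 0.52. None of the 10 had an unadjusted p under 0.05 (FDR = 1 for all 10), beside 652 of the 14076 genes tested (4.63%), and no gene of the 14076 passed FDR < 0.05 by edgeR or limma-voom and 13 by DESeq2. The sign depended on single animals: with HFD M2 and HFD F2 left out logFC was positive for 9 of the 10 genes (median 0.18 instead of −0.11), and it was likewise positive for 9 without CD M3 (median 0.09), without CD F2 (median 0.14) or without HFD F2 alone (median 0.08), while the median was −0.31 without CD M1 and −0.28 without HFD F3. With a term for libraries over 7 M reads in the model (a depth term), the median was −0.24 and 1 gene was positive.

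Between the metformin-treated groups, HFDmetf vs. CDmetf, logFC was positive for all 10 genes and none passed. Values ran from 0.19 ± 0.329 for Col1a2 to 0.63 ± 0.394 (SE) for Sparc, with 0.47 ± 0.290 for Fn1, which had the lowest FDR (0.681). No member had an unadjusted p under 0.05, beside 1108 of the 14076 genes (7.87%), and 0 genes passed FDR < 0.05 by edgeR, limma-voom or DESeq2. Leaving out HFDmetf M1 lowered the median over the 10 genes from 0.33 to 0.05 and left 8 of 10 positive, and fits without HFDmetf M3 gave a median of 0.49.

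HFDmetf vs. HFD, the effect of metformin under the high-fat diet, gave positive values for all 10 genes. They ran from 0.45 ± 0.357 for Col3a1 to 0.71 ± 0.402 (SE) for Sparc, with a median of 0.55 beside 0.026 over all genes tested. Among the fibril-forming collagens, logFC was 0.59 ± 0.430 for Col1a1 and 0.56 ± 0.335 for Col1a2. Collagen IV gave 0.48 ± 0.370 for Col4a1 and 0.53 ± 0.351 for Col4a2, and collagen VI gave 0.59 ± 0.252 for Col6a1, 0.51 ± 0.266 for Col6a2 and 0.58 ± 0.344 for Col6a3. For Fn1 it was 0.54 ± 0.294. Only Col6a1 had an unadjusted p under 0.05 (FDR = 0.640, 1.50-fold, 95% interval of logFC from 0.06 to 1.12), beside 931 of 14076 genes (6.61%), so that no member passed FDR < 0.05 and no other gene did by edgeR, limma-voom or DESeq2. The median over the 10 genes was 0.25 without HFDmetf M1, 0.36 without HFD F2 and 0.23 (0.07 to 0.33) without both HFD M2 and HFD F2, where Col6a1 had an FDR of 0.993. In that fit the median of HFDmetf vs. CDmetf was larger, at 0.32. For HFDmetf vs. HFD the median was 0.70 without HFDmetf M3, where 6 members had an unadjusted p under 0.05, beside 14.5% of all genes. It was 0.69 without HFD F3, where 4 members did, beside 16.2% of all genes.

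CDmetf vs. CD, the same drug under the control diet, gave values closer to zero, from −0.07 ± 0.291 for Fn1 to 0.32 ± 0.332 (SE) for Col1a2, with 8 of 10 positive. No member had an unadjusted p under 0.05 (FDR of 0.976 or more), beside 724 of 14076 genes (5.14%). The count of genes past FDR < 0.05 was 0 by edgeR and limma-voom and 4 by DESeq2. The median over the 10 genes was 0.12 with all libraries and ran from −0.12 (without CD M1) to 0.34 (without CD F2) when single libraries were left out. It was 0.26 without CD M3, where all 10 were positive, and −0.07 with a depth term, where 4 were. These comparisons share their CD, HFD, CDmetf or HFDmetf libraries, so their values are not independent of each other. The diet by metformin interaction, which tests whether the effect of the drug differed between diets, was positive for all 10 genes (0.22 ± 0.5 for Col3a1 to 0.75 ± 0.559 for Sparc) and passed for none (lowest FDR = 0.801, for Fn1), beside 849 genes with p under 0.05 (6.03%). Its median of 0.46 was 0.11 without HFDmetf M1, 0.22 without CD M3 or CD F2, 0.23 without HFD F2 and 0.17 without HFD M2 and HFD F2. It was larger in other fits, at 0.60 without HFDmetf M3, 0.64 without HFD F3 and 0.57 with a depth term. Without CD M1 it was 0.67. There Fn1 had the lowest unadjusted p of the 10 in the edgeR test (0.0328, lowest FDR = 0.653), beside 7.43% of all genes with p under 0.05. Averaged over metformin, HFD feeding gave 0.05 to 0.29 with no p under 0.05 (839 genes, 5.96%). The median of this average was 0.11 with all libraries, 0.24 without HFD M2 and HFD F2, 0.22 without CD M3 or without CD F2, 0.0 without HFD F3, 0.01 without HFDmetf M1, 0.03 without CD M1 and 0.06 with a depth term. Averaged over diet, metformin gave 0.23 ± 0.208 (Fn1) to 0.44 ± 0.237 (Col1a2), with an unadjusted p under 0.05 for Col6a1 alone (0.39 ± 0.178, FDR = 0.793), beside 710 genes (5.04%). Without HFD M2 and HFD F2 the median of that average was 0.16 instead of 0.34. It was 0.20 without HFDmetf M1 and 0.25 with a depth term. It was 0.45 without CD F2, where 5 members had an unadjusted p under 0.05, beside 6.38% of all genes. It was 0.41 without HFD F3 and 0.44 without HFDmetf M3, where 3 members did, beside 12.1% and 9.83% of all genes.

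**Figure D2:**
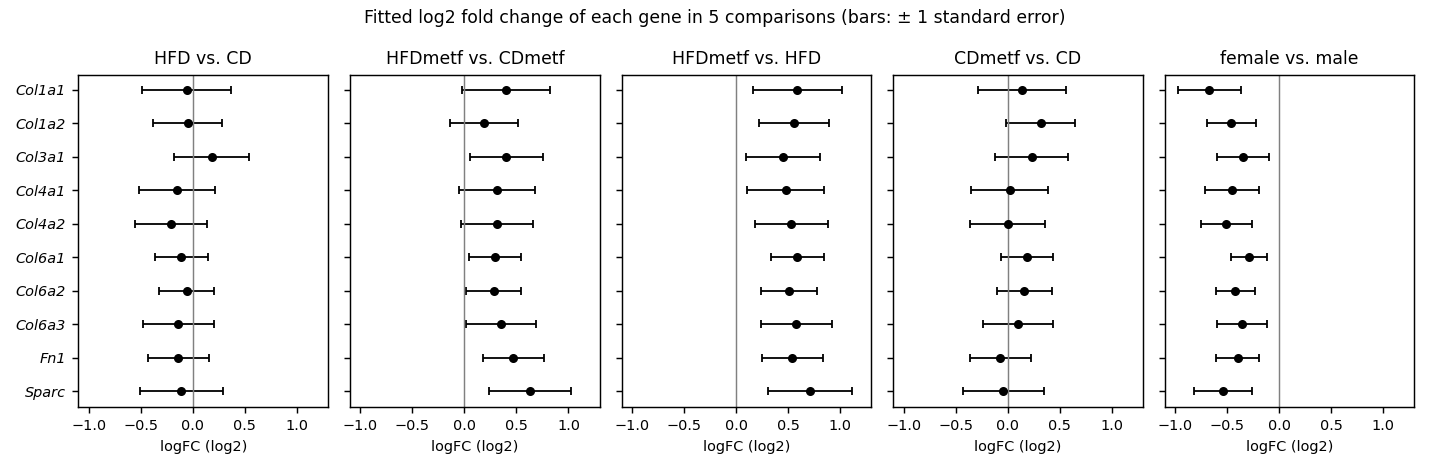
Fitted logFC (log2) of each of the 10 genes in 5 comparisons, with bars of ± 1 SE from the edgeR model over 24 libraries. Points lie between 0.45 and 0.71 in HFDmetf vs. HFD and between −0.67 and −0.29 in female vs. male, and no gene passed FDR < 0.05 in any panel.

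Levels were lower in females than in males for all 10 genes by the fitted value, but none passed FDR < 0.05. The logFC of female vs. male was −0.67 ± 0.302 for Col1a1, −0.42 ± 0.186 (SE) for Col6a2 and between −0.54 and −0.29 for the others, with FDR of 0.666 or more for all 10. By labelled sex, Col1a1 had a median of 107 CPM in 12 males (34.5 to 308) and of 67.6 in 12 females (39 to 244), and Col6a2 of 121 (62.5 to 235) and 96.5 (60.0 to 170). Both female minima were those of HFD F2, whose reads went against its label, as did those of HFD M2 among the males. Without these 2 libraries the medians were 109 in 11 males and 77.5 in 11 females for Col1a1, and 122 and 97.5 for Col6a2. Unadjusted p under 0.05 was found for 2 of 10 members and for 1023 of 14076 genes (7.27%), and 1 gene (0.0071%) passed FDR < 0.05, Kdm6a, an X-linked gene that escapes inactivation. Deep libraries were more frequent among females, and with a term for libraries over 7 M reads, added after the data were seen, the median over the 10 genes was −0.26 instead of −0.43, and no member had an unadjusted p under 0.05. The median was −0.29 without HFDmetf M1, −0.31 without CD M3 and −0.37 without HFD M2 and HFD F2. It was −0.53 without CD M1 and −0.52 without CD F2. In each of these fits 8 members had an unadjusted p under 0.05, beside 11.3% and 10.2% of all genes. Whether the comparisons between groups differed by labelled sex was tested as well. HFD M2 and HFD F2, whose reads went against their labels, entered the tests for HFD vs. CD and HFDmetf vs. HFD. These tests therefore mixed the sexes within HFD, and values of the members without the 2 libraries are not given for them. No member had an unadjusted p under 0.05 for the difference between the sexes, beside 2.11% of 14402 genes in HFD vs. CD, 5.21% in CDmetf vs. CD, 3.33% in HFDmetf vs. HFD and 5.28% in HFDmetf vs. CDmetf, and no gene passed FDR < 0.05 in edgeR.

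Levels of the 10 genes varied together over the 24 libraries. HFDmetf M1 was the highest library for 9 genes and among the 3 highest for all 10, HFDmetf M2 was among the 3 highest for 9, and CD F2 and CDmetf M2 were among the 6 highest for all 10. At the other end, CD M1 was among the 3 lowest for all 10 and HFD F2 for 9. CDmetf M3 was an exception, with 2 genes among the 6 highest and 2 among the 6 lowest, and with 248 CPM for Col3a1 but 62.7 for Col4a2. After the group means were removed, the log2 levels of all 45 pairs of genes were positively correlated over the 24 libraries (Pearson's r from 0.732 to 0.972, median 0.9, Spearman's rho from 0.740 to 0.968). For 44 pairs the permutation p was 1e-05, the smallest that 100000 resamples can give, and for Col3a1 and Col4a2 it was 1e-04. After Benjamini-Hochberg adjustment over the 45 pairs no p exceeded 1e-04. The 10 genes were chosen together as matrix genes and share library, depth and scaling, and only the group means were removed. These p-values therefore cannot tell a link between single genes from a shift shared by a whole library. The highest r belonged to Col4a1 and Col4a2, the head-to-head partners on chromosome 8, and the lowest to Col3a1 and Col4a2. Col1a2 and Col3a1 gave 0.943, Col1a1 and Col1a2 0.925, Col1a1 and Col6a2 0.952, and Col6a1 and Col6a2 0.940. Without the 2 libraries farthest from the median, r was 0.692 to 0.963. Within libraries of 1 replicate number (n = 8 each) r was 0.858 to 0.997, 0.813 to 0.991 and 0.651 to 0.967 for numbers 1, 2 and 3, and it was 0.507 to 0.963 in the 10 deep libraries and 0.793 to 0.973 in the 14 others. Replicate number itself separated 2333 genes of 14076 (16.6%) at FDR < 0.05, but none of the 10 (FDR 0.152 to 0.615).

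Several other matrix genes varied over the 24 libraries much as the 10 did. Of 14066 genes compared with the mean standardized level of the 10, Nid1 (r = 0.966), Col5a1 (0.957), Clec3b (0.944), Pxdn (0.943), Lamc1 (0.939), Fbn1 (0.937), Htra3 (0.932), Col16a1 (0.929), Igfbp5 (0.919) and Vim (0.919) were most alike, and 23 genes had r over 0.9. Nid1 and Lamc1 encode nidogen and a laminin chain of the basement membrane, Col5a1 a chain that is built into collagen I fibrils, Fbn1 the microfibril protein fibrillin, and Vim the intermediate filament of mesenchymal cells. Nid1 ran from 30.1 to 164 CPM. Of these 10, 5 are in the lists of other matrix genes described last. Of the 10 most alike genes, 8 were the same without CD M3 and 7 when the group means were removed first. Of the genes compared with 5 single members, Col5a1, Eln (elastin) and Mmp14 were nearest to Col1a1 (r = 0.959, 0.925 and 0.925), Pxdn, whose product cross-links collagen IV, to Col4a1 (0.952), Clec3b to Col6a1 (0.964), Nid1 to Fn1 (0.937) and Vim to Sparc (0.951). All of these but Eln and Mmp14 are also among the 10 nearest to the mean. The most opposite genes were Hps5 (r = −0.884), H2-T3 (−0.849), Slc7a15 (−0.847), Myrfl (−0.846) and Naip5 (−0.841). These correlations share library, depth and scaling and are given as a description.

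**Figure D3:**
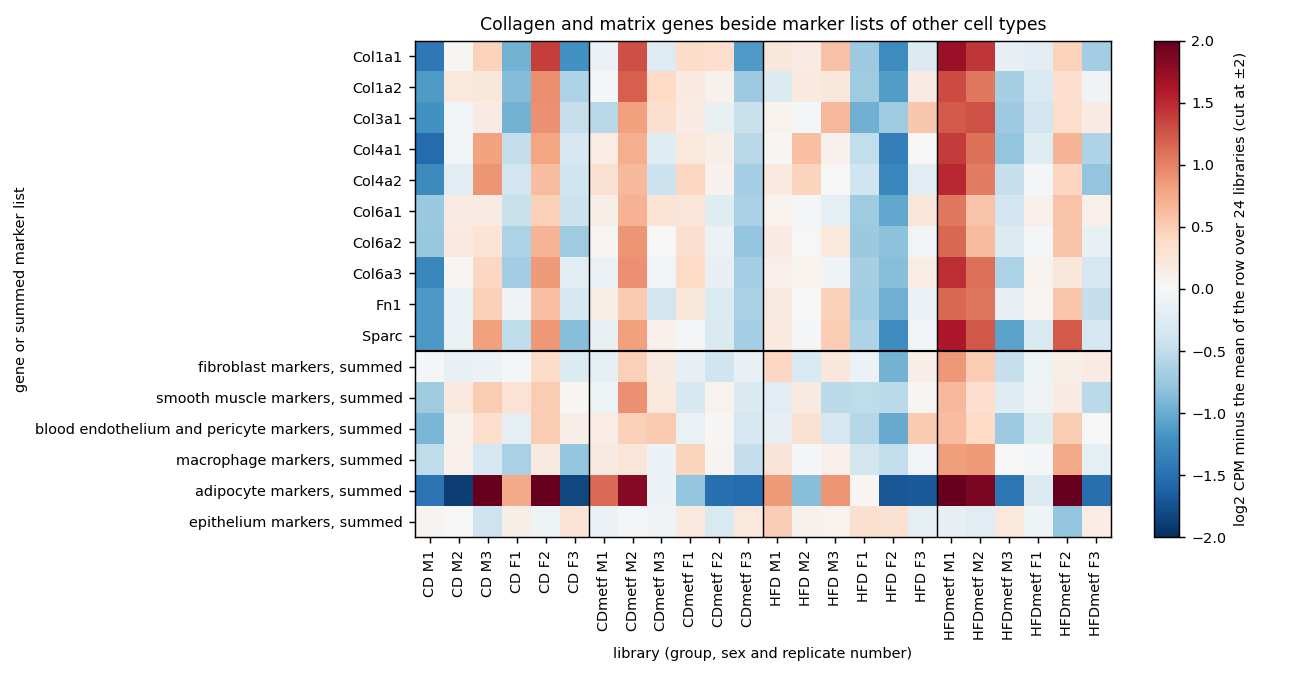
Log2 CPM of the 10 genes and of the summed markers of 6 cell types, each minus its mean over the 24 libraries, with columns grouped by CD, CDmetf, HFD and HFDmetf. Columns of HFDmetf M1 and HFDmetf M2 are high and those of CD M1 and HFD F2 low through nearly all rows of the 10 genes.

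Summed markers of several cell types of the gut wall varied with the matrix genes. Adipocyte markers (9 genes, summed) ranged from 40.7 to 950 CPM and were highest in HFDmetf M1 (950), HFDmetf F2 (775), CD M3 (675), CD F2 (648), HFDmetf M2 (564) and CDmetf M2 (540). Those libraries include the 4 with the highest summed level of the 10 genes. By group, the adipocyte sum was 40.7 to 675 CPM in CD (median 156), 52.6 to 540 in CDmetf (median 115), 46.3 to 282 in HFD (median 120) and 53.6 to 950 in HFDmetf (median 345), and by sex 40.7 to 950 in males (median 279) and 42.9 to 775 in females (median 71.4). Adipoq, which encodes the fat cell hormone adiponectin, was listed at 0 in CD M1, HFD F2, HFDmetf M3 and HFDmetf F3, and Plin1, Lep, Cfd and Retn were at 0 in at least 1 library. Smooth muscle markers (10 genes) ranged from 1612 to 4992 CPM and fibroblast markers (13 genes) from 404 to 1417. The fibroblast markers include Fbln1, Dcn and Mfap5, which are also in the lists of other matrix genes described last. Of these, Fbln1, with group means of 135 to 237 CPM, ran against the mean of the 10 genes (r = −0.61). Over the 24 libraries, r with the summed log2 level of the 10 genes was 0.82 for macrophage, 0.81 for blood endothelium and pericyte, 0.75 for adipocyte, 0.74 for smooth muscle, 0.74 for fibroblast, 0.73 for enteric glia, 0.66 for enteric neuron and 0.62 for lymphatic endothelium markers. It was −0.53 for epithelium markers (10 genes, 11306 to 27420 CPM, none of them at 0 in any library), and between −0.22 and 0.24 for mesothelium, ileal epithelium, T cell, B cell, plasma cell and pancreatic acinar markers. The medians of the smooth muscle sum were 3131, 2622, 2064 and 2750 CPM in CD, CDmetf, HFD and HFDmetf, and those of the epithelium sum 19880, 18968, 22379 and 17872. In the same order, the medians were 115, 167, 148 and 206 for macrophage markers and 647, 636, 504 and 692 for blood endothelium and pericyte markers. What part these cell types had in the levels of the 10 genes was not tested.

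**Figure D4:**
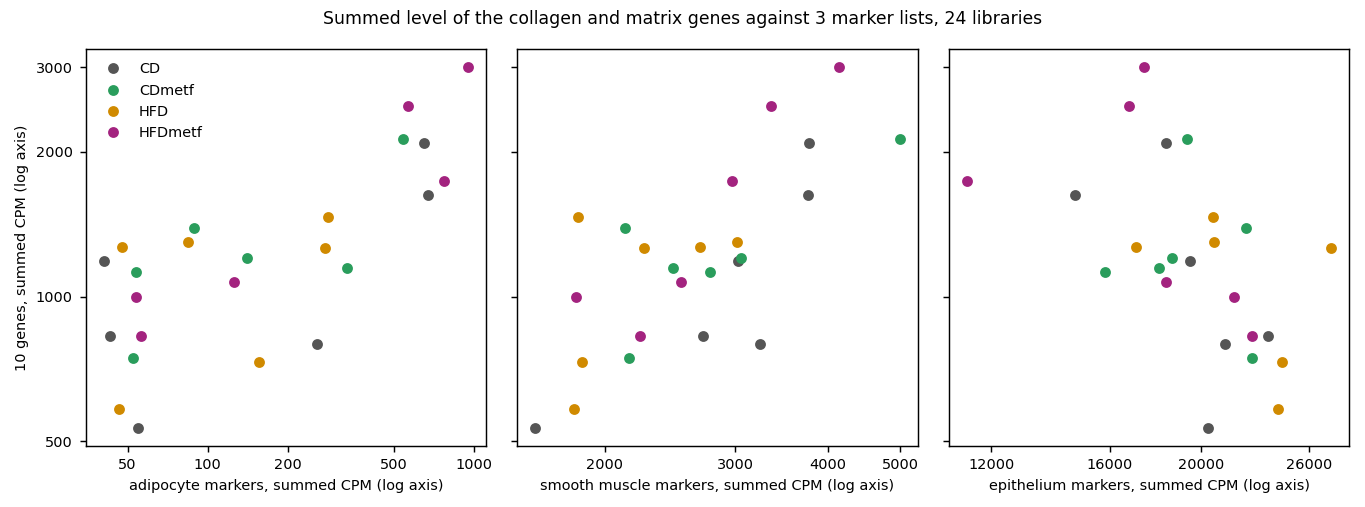
Summed CPM of the 10 genes (log axis) against the summed CPM of adipocyte, smooth muscle and epithelium markers (log axes) in 24 libraries coloured by group. The sum of the 10 genes spans 534 to 2995 CPM, and r is 0.75, 0.74 and −0.53 in the 3 panels.

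Ratios between chains of one collagen do not depend on how a library is scaled, and no difference between groups was detected. The geometric mean ratio of Col1a1 to Col1a2 reads was 0.869, 0.854, 0.941 and 1.01 in CD, CDmetf, HFD and HFDmetf, and that of Col4a1 to Col4a2 was 1.47, 1.49, 1.50 and 1.45. For Col6a2 to Col6a1 it was 0.827, 0.826, 0.880 and 0.828. Across 5 ratios and 4 group comparisons, 20 exact permutation tests (two-sided) gave a lowest p of 0.288, or 0.991 after Benjamini-Hochberg adjustment, where 6 against 6 libraries could reach 0.00216. Col4a1 was above Col4a2 in 24 of 24 libraries.

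Some ratios differed between deep and shallow libraries. Col1a1 to Col1a2 was 0.755 (0.583 to 1.09) in the 10 libraries over 7 M reads and 1.05 (0.808 to 1.29) in the 14 others, and all 14 lay above the median of the deep libraries, 0.716. Col6a2 to Col6a1 was 0.755 (0.680 to 0.912) against 0.907 (0.787 to 1.11), again with all 14 above the deep median. Col3a1 to Col1a1 was 2.65 (1.71 to 3.82) against 1.81 (1.45 to 3.11), whereas Col4a1 to Col4a2 was 1.48 in both. For Col3a1 to Col1a1 the deep libraries of replicate number 1 (1.81 to 2.47) and CD M3 (1.71) lay within the range of the shallow ones. The other deep libraries, all of replicate number 3, had 3.18 to 3.82. Each of the 10 genes also had a lower mean log2 CPM in the deep libraries, by −0.36 (Col6a1) to −1.1 (Col1a1). This split by depth was made after the data were seen and carries no test, and depth also differed with sex and replicate number.

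**Figure D5:**
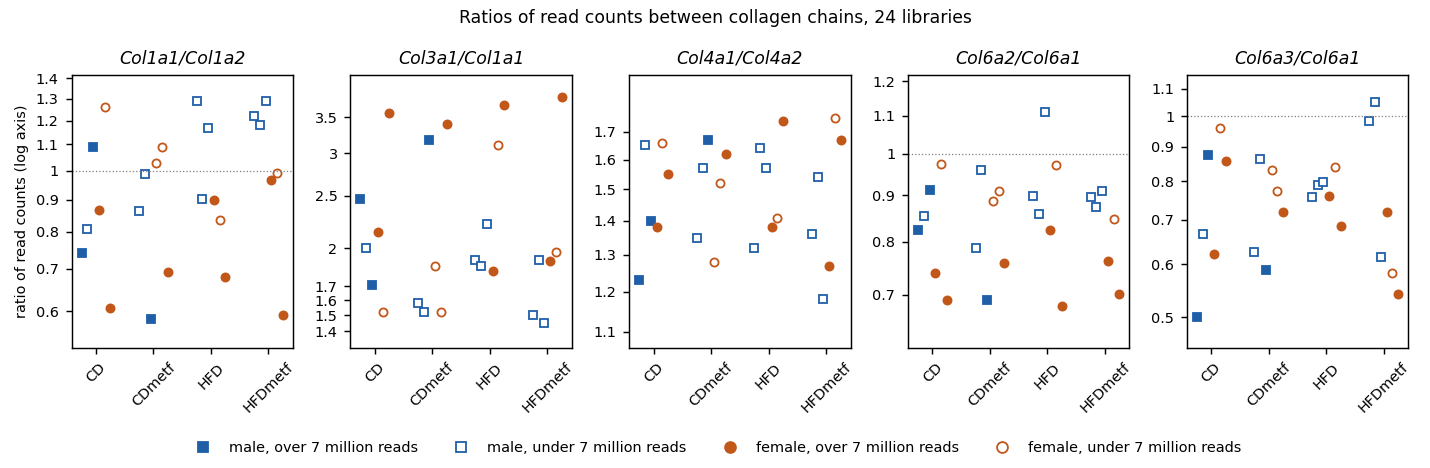
Ratio of read counts (log axis) for 5 pairs of collagen chains in the 24 libraries by group, with filled symbols for libraries over 7 M reads and a dotted line at a ratio of 1. Filled symbols lie low for Col1a1/Col1a2 and Col6a2/Col6a1, and Col4a1/Col4a2 is above 1 in every library.

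The rest of the matrix was examined through 9 lists of other matrix genes (171 genes, 155 tested). No gene of these lists passed FDR < 0.05 in any comparison, so genes with an unadjusted p under 0.05 are counted here, with logFC ± SE for those named (FDR of 0.494 or more for each). In HFDmetf vs. HFD there were 26 such genes with a higher and none with a lower level in HFDmetf (16.8% of the 155, against 6.61% of all genes). That count rested on few libraries and differed between methods. Without HFD M2 and HFD F2 it was 1 of 159 tested (0.629%, against 2.26% of all genes). With the compared libraries alone 9 genes were higher and 1 lower of 152 (6.58%, against 3.95%). By limma-voom 16 were higher and 2 lower (11.6%, against 6.57%), and by DESeq2 26 and 2 (18.1%, against 7.98%). With a depth term 18 of 156 were higher and none lower (11.5%, against 6.33%). Fits without 1 library tested 155 or 156 genes of the lists, and the share of all genes follows in brackets. The count was 2 without HFD F2 (3.68%) or HFDmetf M1 (2.8%), 5 without HFDmetf F2 (3.1%) and 7 without HFD F1 (5.19%). It was 8 without HFD M2 (5.54%), 11 without HFDmetf M2 (7.44%, with 3 genes lower) and 13 without HFD M1 (4.96%). It was 65 without HFD F3 (16.2%, with 3 genes lower), 52 without HFDmetf M3 (14.5%, with 5 lower) and 16 to 28 without any other library. In the fits without HFD F3 and without HFDmetf M3 the share of all genes was thus also above 6.61%. The 26 genes of the fit over all libraries included Timp3 (0.71 ± 0.255), Timp2 (0.66 ± 0.285), Adamts1 (0.88 ± 0.388) and Adamts9 (0.66 ± 0.297) among proteases and their inhibitors, and Serpinh1, the collagen chaperone (0.62 ± 0.297). Median logFC was 0.50 for other fibrillar and fibril-associated collagens, 0.42 for the basement membrane list, 0.39 for collagen processing, 0.50 for elastic fibre and 0.51 for matricellular genes, but 0.07 for TGF-beta signalling. These medians are from the fit over all libraries. In HFDmetf vs. CDmetf 7 genes with an unadjusted p under 0.05 had positive and 2 negative values (5.81% of the 155, against 7.87% of all genes), led by Mmp12, macrophage elastase, with mean levels of 21.1 and 1.4 CPM (logFC 3.12 ± 0.876, FDR = 0.582), and Tgfbi had −0.66 ± 0.227. The 1.4 CPM of Mmp12 in CDmetf lay near the level of 3 reads, which was 0.779 to 0.98 CPM in the shallow libraries of that group. In HFD vs. CD the collagen prolyl hydroxylase subunits P4ha1 (0.63 ± 0.218) and P4hb (0.61 ± 0.272) had positive values and Col8a2 a negative one (−0.87 ± 0.348), 1.94% of the 155 in all against 4.63% of all genes (FDR = 1 for each). In CDmetf vs. CD 6 genes had positive values (3.87%, against 5.14%), among them Bgn, the proteoglycan biglycan (0.59 ± 0.257). The shares in HFDmetf vs. CDmetf, HFD vs. CD and CDmetf vs. CD were below those of all genes. In female vs. male 29 genes had negative and none positive values (18.7%, against 7.27%), among them Tnxb (−0.77 ± 0.244), Fbln2 (−1.01 ± 0.339) and Mmp12 (−2.03 ± 0.594). That count was 26 of 159 (16.4%, against 6.74%) without HFD M2 and HFD F2. With the share of all genes in brackets, it was 14 without HFDmetf M1 (6.37%) and 19 without CD M3 (6.55%) or HFDmetf F3 (5.29%). It was 45 without CD F2 (10.2%), 46 without CD M1 (11.3%) and 49 without HFD F3 (8.08%). With a term for depth it was 5 of 156 (3.21%), near the 2.94% of all genes. In likeness to the mean of the 10 genes, the median r was 0.82 for other fibrillar collagens and for elastic fibre genes, 0.76 for matricellular and 0.58 for basement membrane genes, 0.30 for TGF-beta signalling and 0.04 over all genes tested. Not all genes of these lists were alike: 3 basement membrane and 4 collagen processing genes had r under 0, and r was −0.61 for Fbln1, −0.51 for P4hb, −0.4 for Agrn and −0.33 for Podn.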

How the data were processed

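RNA was extracted from ileum tissue of 24 mice, depleted of ribosomal RNA (200 ng of total RNA) and sequenced as directional paired-end libraries. The authors trimmed the reads with Trimmomatic 0.39, mapped them to GRCm38 and deposited raw read counts per gene from STAR 2.5.3a, with 1 column per animal. The annotation release and the counted strand were not given in the sources used here. All 55536 gene identifiers matched GENCODE M21, and 55450 matched a symbol.

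Counts were filtered with filterByExpr, scaled with TMM factors (trimmed mean of M-values) and tested with edgeR 4.0.16 (quasi-likelihood, R 4.3.3), with group, sex and replicate number in the model and Benjamini-Hochberg adjustment over all 14076 genes tested (FDR < 0.05). The replicate number stood in for the sequencing block of the study's model, which the labels do not give. The step was tested on simulated data. Also run were limma-voom (limma 3.58.1) and DESeq2 1.42.0, other size factors and filters, no replicate block, the compared groups alone, and fits without each animal or without HFD M2 and HFD F2. A depth term, the split at 7 M reads, exon-union lengths, counts over the matrix lists in each of these fits and levels by sex without HFD M2 and HFD F2 were added after the data were seen. Log2 levels used CPM plus 0.5, and intervals and floors (3 reads) cover counting error or model error only.

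The 10 genes and all lists were chosen with earlier results of these data known. Genes named for likeness were the 10 highest and 5 lowest in correlation with the mean of the 10, and the 3 nearest to each of 5 members. From the lists of matrix genes, examples with an unadjusted p under 0.05 are named, and their choice among such genes was made after their values were seen.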

Additional observations from a re-analysis of the deposited data

Results flagged for a closer look

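Among 60 sets of 6 libraries (10 gene levels and 5 chain ratios in 4 groups), 2 held a library that stood apart from the other 5 by Dixon's test at 95% (critical value 0.625 for 6 samples), and chance alone marks about 1 in 20 such sets. Both were in HFDmetf F3, a female library with 27.2 M reads. Its ratio of Col1a1 to Col1a2 reads was 0.592, against 0.966 to 1.29 in the other HFDmetf libraries. Its ratio of Col3a1 to Col1a1 reads was 3.82, against 1.45 to 1.97. Both ratios contain Col1a1, so they are not independent of each other. Similar ratios were found in other groups, where Col3a1 to Col1a1 was 3.57 in CD F3, 3.4 in CDmetf F3, 3.69 in HFD F3 and 3.18 in CDmetf M3, and Col1a1 to Col1a2 was 0.607, 0.691, 0.68 and 0.583. These 4 libraries are also deep and have replicate number 3, as has CD M3 with 1.71 and 1.09. Depth differed too, since 1 other HFDmetf library, HFDmetf F1, had over 7 M reads, and its part in the 2 ratios was not tested.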

How the results depend on the processing

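No member passed FDR < 0.05 in any comparison under any alternative that was run, and counts of genes passing in HFDmetf vs. CDmetf, HFDmetf vs. HFD and the average effect of metformin were 0 throughout. By DESeq2 the count was 13 in HFD vs. CD, 4 in CDmetf vs. CD, 4 for the interaction, 48 for the average diet effect, 22 in female vs. male, and for the differences between sexes 2 in HFD vs. CD, 46 in HFDmetf vs. CDmetf, 4 in HFDmetf vs. HFD and 7 in CDmetf vs. CD. Without a filter on low counts it was 2 for the average diet effect, 15 in female vs. male, and 1, 42, 3 and 8 for those 4 differences. By limma-voom it was 2 for the average diet effect and 4501 for replicate number. Without HFD M2 and HFD F2 it was 8 in female vs. male and 1 for the difference of HFDmetf vs. CDmetf between sexes, and with a term for depth it was 0 in female vs. male and 894 for replicate number. Leaving out single libraries gave 0 to 1 gene in HFD vs. CD, 0 to 6 for the average diet effect, 1 to 8 in female vs. male, 1269 to 4080 for replicate number, and 0 to 1, 0 to 10 and 0 to 1 for the differences between sexes of HFD vs. CD, HFDmetf vs. CDmetf and CDmetf vs. CD.

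Signs of members near zero changed. In HFD vs. CD, logFC of Col1a1 was 0.09 by limma-voom and 0.03 with the compared libraries alone. Without HFD M2 and HFD F2 it was 0.42 for Col1a1, 0.29 for Col1a2, 0.09 for Col4a1, 0.14 for Col6a1, 0.22 for Col6a2, 0.13 for Col6a3, 0.14 for Fn1 and 0.28 for Sparc. The same omission gave interactions of −0.02 for Col1a1, −0.11 for Col1a2 and −0.19 for Col3a1, and −0.00037 for Col4a2 in CDmetf vs. CD. In CDmetf vs. CD a depth term gave −0.10 for Col1a1, −0.11 for Col4a1, −0.15 for Col4a2 and −0.03 for Col6a3, and a minimum of 10 counts in every library gave −0.00076 for Col4a1 and −0.02 for Col4a2. There, limma-voom gave 0.04 for Fn1 and 0.12 for Sparc, and Sparc was 0.01 without a filter and 0.02 with the compared libraries alone. The cause of these changes was not tested.

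Over fits that left out 1 library, the lowest and highest logFC in HFD vs. CD were −0.30 and 0.42 for Col1a1, −0.29 and 0.25 for Col1a2, −0.04 and 0.50 for Col3a1, −0.38 and 0.16 for Col4a1, −0.44 and 0.13 for Col4a2, −0.35 and 0.05 for Col6a1, −0.22 and 0.16 for Col6a2, −0.39 and 0.12 for Col6a3, −0.35 and 0.04 for Fn1, and −0.31 and 0.19 for Sparc. In HFDmetf vs. CDmetf they were −0.16 and 0.35 for Col1a2 and −0.02 and 0.48 for Col4a1. In CDmetf vs. CD they were −0.11 and 0.69 for Col1a1, −0.22 and 0.27 for Col4a1, −0.24 and 0.29 for Col4a2, −0.13 and 0.35 for Col6a3, −0.28 and 0.11 for Fn1, and −0.24 and 0.24 for Sparc. For the interaction they were −0.09 and 0.67 for Col1a1, −0.15 and 0.46 for Col1a2 and −0.17 and 0.43 for Col3a1. For the average diet effect they were −0.08 and 0.20 for Col1a2, −0.06 and 0.23 for Col4a1, −0.08 and 0.22 for Col4a2, −0.03 and 0.17 for Col6a1 and −0.04 and 0.22 for Col6a3.

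The replicate number was a block in the model. Libraries of the same sex and number correlated in their deviations from the group means by more than 0.1 in 24 of 36 pairs (mean r 0.175, from −0.453 to 0.775). Of the other 180 pairs 50 did (mean r −0.0344). For the same number in either sex mean r was 0.14, against −0.0694 for different numbers. Libraries that share a number were thus more alike on average, with a wide spread. Whether the numbers pair single animals was not tested. With no replicate block the average diet effect on Col1a2 was −0.01, and Col6a1 in HFDmetf vs. HFD was 0.62 ± 0.250 (SE, FDR = 0.757). The block changed no count of genes past FDR < 0.05. The test of replicate number by DESeq2 and without the block was not run.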
